A study of Mus musculus with 12 samples.

Results

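The genes of oxidative phosphorylation were described in whole spinal cord of 6 wild-type (WT) mice and 6 mice heterozygous for the ETAQ deletion in Gars. They were chosen by symbol (Nduf, Sdh, Uqcr, Cox4 to Cox8, Atp5 and the protein genes of mitochondrial DNA, without pseudogene symbols), which gave 98 of the 38924 genes measured. Of these, 85 are nuclear genes (35 of complex I, 4 of complex II, 8 of complex III, 20 of complex IV and 18 of complex V) and 13 are encoded in mitochondrial DNA (7, 0, 1, 3 and 2). Ndufa4 and Ndufa4l2, named as complex I genes, were counted with complex IV, where the Ndufa4 protein is found. All other members were assigned by symbol alone, so Atp5s and Atp5sl stand with complex V by name only. Ndufab1, Cyc1, Cycs and 2 more subunits have symbols outside the rule and were read as a separate list.

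The respiratory chain passes electrons from NADH (complex I) and succinate (complex II) through ubiquinol and cytochrome c (complex III) to oxygen (complex IV), and ATP synthase (complex V) makes ATP from the proton gradient that results. Its subunits come from both the nuclear and the mitochondrial genome, which have to supply matched parts, except for complex II, which is wholly nuclear. Neurons depend heavily on this pathway, and Gars encodes glycyl-tRNA synthetase, which serves protein synthesis in the cytosol and in mitochondria alike.

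Both genotypes were on a mixed B6J;FVB background and aged 8 weeks, with 3 males and 3 females each. The WT mice were numbers 2, 3, 4 (males), 7, 10 and 12 (females) and the heterozygous mice, called ETAQ here, were numbers 1, 8, 9 (females), 5, 6 and 11 (males). Each library is 1 mouse. RNA was selected by its polyA tail and read as paired reads of the whole cord, so fewer cells of a type and less RNA per cell cannot be told apart. The deletion removes a few codons and leaves the transcript countable, so counts of Gars do not check the genotype labels: Gars stood at 127 ± 4.95 CPM (a counts-per-million level, SD, n = 6) in WT and 145 ± 5.79 in ETAQ (log2 fold change 0.19 ± 0.03, edgeR, adjusted p = 0.00408).

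Library totals ranged from 23595929 to 41452662 counts, at which 3 counts equal 0.0730 to 0.129 CPM. All CPM values are scaled by the trimmed mean of M-values (TMM). Oligodendrocyte markers summed to 25920 to 36340 CPM and neuronal markers to 6061 to 7389 CPM, so both cell types of the cord were present in every library. Mice 1 to 6 differed from mice 7 to 12 in markers of other tissue: red blood cell markers summed to 1918 to 3553 CPM against 143 to 270 CPM, marrow neutrophil markers to 96.0 to 178 against 0.737 to 4.37, Schwann cell markers to 321 to 748 against 75.1 to 98.8, skeletal muscle markers to 282 to 1390 against 173 to 196, and smooth muscle markers to 32.6 to 55.4 against 21.6 to 27.5. Of these lists 7 of 7, 8 of 8, 4 of 4, 12 of 15 and 2 of 4 genes were called higher in mice 1 to 6. Of all genes tested, 7.89% were called in either direction. The labels name no batch, and this division by mouse number was made after the libraries were seen to differ. The labels' protocol names 2 kits for library preparation and ties no library to either, so a part of the kit in values by mouse number, or in the mitochondrial levels, was not tested. The division by mouse number holds 3 mice of each genotype on each side but runs close to sex. Of the 6 mice 1 to 6, 5 are male, and of the 6 mice 7 to 12, 5 are female. In WT, division and sex coincide wholly (mice 2, 3 and 4 male, mice 7, 10 and 12 female). Only ETAQ mice 1 and 11 part the division from sex.

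Levels were first compared per length, on the transcripts-per-million (TPM) scale. The 13 mitochondrially encoded transcripts made up 22.9% to 30.9% of all TPM of a library and 7.27% to 10.4% of its counts. The share of TPM includes mt-Atp8, whose scale is uncertain, as described below. Among them the complex IV transcripts mt-Co2 and mt-Co1, for catalytic subunits of cytochrome oxidase, had mean levels over the 12 mice of 32257 and 31435 TPM, and mt-Co3 had 25145 TPM. Complex I transcripts were lower as deposited, from 15241 TPM for mt-Nd1 to 5632 TPM for mt-Nd5. The deposited level of mt-Nd4l is one part of an equal split with a pseudogene, described below, so its place in this order is uncertain. In GENCODE M21, mt-Co2, mt-Co3, mt-Atp6 and mt-Nd3 share 97.81% to 99.86% of their 75-base sequences with other genes. For mt-Nd4 it is 61.5% and for mt-Co1 39.84%. The part of these other genes in the levels was not tested. mt-Cytb, the only mitochondrially encoded subunit of complex III, was measured at 15110 TPM and mt-Atp6, a proton channel subunit of ATP synthase, at 22753 TPM.

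The highest mean, 57472 TPM, was that of mt-Atp8, and its scale is the least certain. The deposited length of mt-Atp8 is 204 bases. This is below the fragment length of every library, 222 to 248.8 bases as the median read from the effective lengths of long genes. The deposited effective length of mt-Atp8, by which its counts are divided, was only 20.6 to 26.8 bases. Its sequence also overlaps that of mt-Atp6: in GENCODE M21 (GRCm38) both genes share the 43 bases of chrM:7927-7969 on the plus strand. This stretch is shorter than 75 bases, and 0% of the 75-base sequences of mt-Atp8 are shared with another gene. The stretch is shown because it is where the 2 genes overlap, with the start codon of mt-Atp6 in capitals.
mt-Atp8 and mt-Atp6: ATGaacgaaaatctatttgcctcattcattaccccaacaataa

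Nuclear members were measured at far lower levels per length. The highest of each complex were Atp5b, the catalytic beta subunit of ATP synthase (1119 TPM, range over mice 912 to 1206), Cox6c of complex IV (1057 TPM), Uqcrh, the hinge protein of complex III (696 TPM), Ndufa3 of complex I (641 TPM) and Sdha, the flavoprotein of succinate dehydrogenase (285 TPM). The median of the subunits tested was 190 TPM in complex I and 162 TPM in complex II. The lowest tested members were Atp5s, placed in complex V by its symbol, at 18.6 TPM, Ndufa11 at 33.3 TPM in complex I and Cox6a2 at 3.66 TPM in complex IV.

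The main comparison asked whether these genes differ between ETAQ and WT cords. Of the 98 genes, 94 had enough counts to be tested with edgeR and sex as a covariate. The 4 others were Cox8c and Atp5g2, at 0 counts in all 12 libraries (each allowing up to 3 counts), Atp5l2, with 1 count in 1 library, and Cox7b2, at 0 to 0.209 CPM. At an adjusted p under 0.05 over all 17189 genes tested, 1 member was lower in ETAQ and none was higher, against 1.92% of all genes tested. At an unadjusted p under 0.05, 10 members (10.6%) were lower, against 6.36% of all genes, and 0 were higher.

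The called gene was Ndufa10, an accessory subunit of complex I (chromosome 1, 92439010 to 92473860 on the minus strand, GRCm38). In WT it was measured at 131.6, 141.4, 140.2, 123.0, 129.5 and 139.1 CPM in mice 2, 3, 4, 7, 10 and 12. In ETAQ it was measured at 122.3, 123.5, 122.4, 116.9, 121.3 and 117.7 CPM in mice 1, 5, 6, 8, 9 and 11. The groups touched only at the lowest WT mouse, number 7, which lay below ETAQ mouse 5. The log2 fold change was -0.15 ± 0.034 (SE, adjusted p = 0.0316), with means of 134 ± 7.30 CPM in WT and 121 ± 2.73 CPM in ETAQ (SD, n = 6). It had the same direction in both sexes (-0.12 ± 0.048 in females and -0.18 ± 0.048 in males) and in both mouse divisions (-0.17 ± 0.048 and -0.14 ± 0.048). The call was narrow: it held without mouse 1, 2 or 7 and was lost without any 1 of the 9 others, with adjusted p from 0.0524 to 0.0904 and log2 fold changes from -0.134 to -0.158.

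Neuronal markers moved with the same comparison. The summed level of 8 general neuronal markers was 6959 to 7389 CPM in WT and 6061 to 6450 CPM in ETAQ, with no overlap and 2 of the 8 called lower. The summed level of 8 motor neuron markers was 217.5 to 259.3 CPM in WT and 128 to 163.3 CPM in ETAQ, also with no overlap and with 3 of the 7 tested called lower. Of all genes tested, 1.92% were called in either direction, and for 2.01% the CPM values of the genotypes did not overlap. None of the markers listed for either cell type was at 0 in all libraries. Their part in the values of Ndufa10 and of the other members was not tested.

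The bases before the start of Ndufa10 are shown because it is the 1 gene called between the genotypes. The window is the 250 bases before the RefSeq start (GRCm38.p6, chr1:92473759-92474008, minus strand), and capitals would mark the promoter motifs searched for below, of which it holds none.
Ndufa10: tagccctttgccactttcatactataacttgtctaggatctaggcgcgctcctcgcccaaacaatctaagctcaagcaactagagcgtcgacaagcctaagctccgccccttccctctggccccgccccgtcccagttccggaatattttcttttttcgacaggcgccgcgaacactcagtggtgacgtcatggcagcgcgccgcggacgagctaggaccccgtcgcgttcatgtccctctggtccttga

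Small values below 0 prevailed among the members. Of the 81 nuclear members tested, 65 had a log2 fold change below 0, with a median of -0.031, and the median of all genes tested was 0.0043, of which 48.1% were below 0. This direction depended on the scale: in mean TPM, 39 of the 81 were lower in ETAQ and the median log2 ratio was 0.0026, while the median of all genes tested was 0.0415 on that scale, so that relative to all genes the members lay lower on both. The summed TPM of ETAQ relative to WT was 0.986 for nuclear complex I, 0.997 for II, 0.997 for III, 0.994 for IV and 0.9998 for V, whereas the summed CPM gave 0.963 to 0.973. These medians and sums are descriptions with no test.

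The next members in complex I stood just outside the threshold. Ndufa12, an accessory subunit that is the paralog of an assembly factor, was 71.8 ± 1.98 CPM in WT and 65.8 ± 3.71 CPM in ETAQ, a log2 fold change of -0.13 ± 0.034 (adjusted p = 0.0882). Its ETAQ mouse 5, at 72.8 CPM, lay among the WT mice, and the 5 others were 62.6 to 66.1 CPM against 68.8 to 74.1 CPM in WT. It passed the threshold without mouse 5 (adjusted p = 0.0156), with mouse division as a further covariate (adjusted p = 0.046) and with DESeq2 (adjusted p = 0.0309), over a range of 0.0156 to 0.35 in all alternatives. A pseudogene, Gm15920, held up to 136 of its counts in single libraries, and with these added the log2 fold change was -0.11 ± 0.044 (adjusted p = 0.35). Ndufv3, Ndufv2 and Ndufa5, chosen for naming after their values were seen since they complete the 5 complex I genes at an unadjusted p under 0.05, had log2 fold changes of -0.13, -0.09 and -0.09. Ndufv2 and Ndufv3 belong to the NADH-oxidising end of the complex. Over the 35 nuclear complex I genes, 28 had a value below 0 in CPM and 16 in TPM, with medians of -0.032 and 0.0037.

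In complex II, Sdha was 453 ± 15.04 CPM in WT and 430 ± 13.5 CPM in ETAQ, with a log2 fold change of -0.07 ± 0.029 (adjusted p = 0.312). Sdhd, a membrane anchor of the complex, differed by -0.04 ± 0.032 (adjusted p = 0.749). All 8 nuclear complex III genes had values below 0 in CPM, but 4 in TPM, and none reached an unadjusted p under 0.05. The nearest were Uqcrh at -0.07 ± 0.047 and Uqcrfs1, the iron-sulphur protein, at -0.07 ± 0.051 (adjusted p = 0.644 and 0.688).

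In complex IV, Cox4i1, the main form of subunit 4, was 315 ± 21.2 CPM in WT and 295 ± 10.6 CPM in ETAQ (log2 fold change -0.09 ± 0.032, adjusted p = 0.224). Cox7b differed by -0.06 ± 0.039 (adjusted p = 0.636). In complex V the catalytic core gene Atp5b was 989 ± 35.1 CPM in WT and 940 ± 14.6 CPM in ETAQ, a log2 fold change of -0.07 ± 0.028 (adjusted p = 0.31). Atp5d, the delta subunit of the central stalk, differed by -0.08 ± 0.033 (adjusted p = 0.379). Atp5a1, the alpha subunit, was the remaining complex V gene at an unadjusted p under 0.05, at -0.07 ± 0.029, and was chosen for naming after its values were seen.

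The precision of most nuclear genes was high. The median SE was 0.0417 on the log2 scale, and the 95% interval lay within a 1.2-fold change in either direction for 74 of the 81. For none of the 94 members did the CPM values of the genotypes fail to overlap, against 2.01% of all genes tested.

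**Figure D1:**
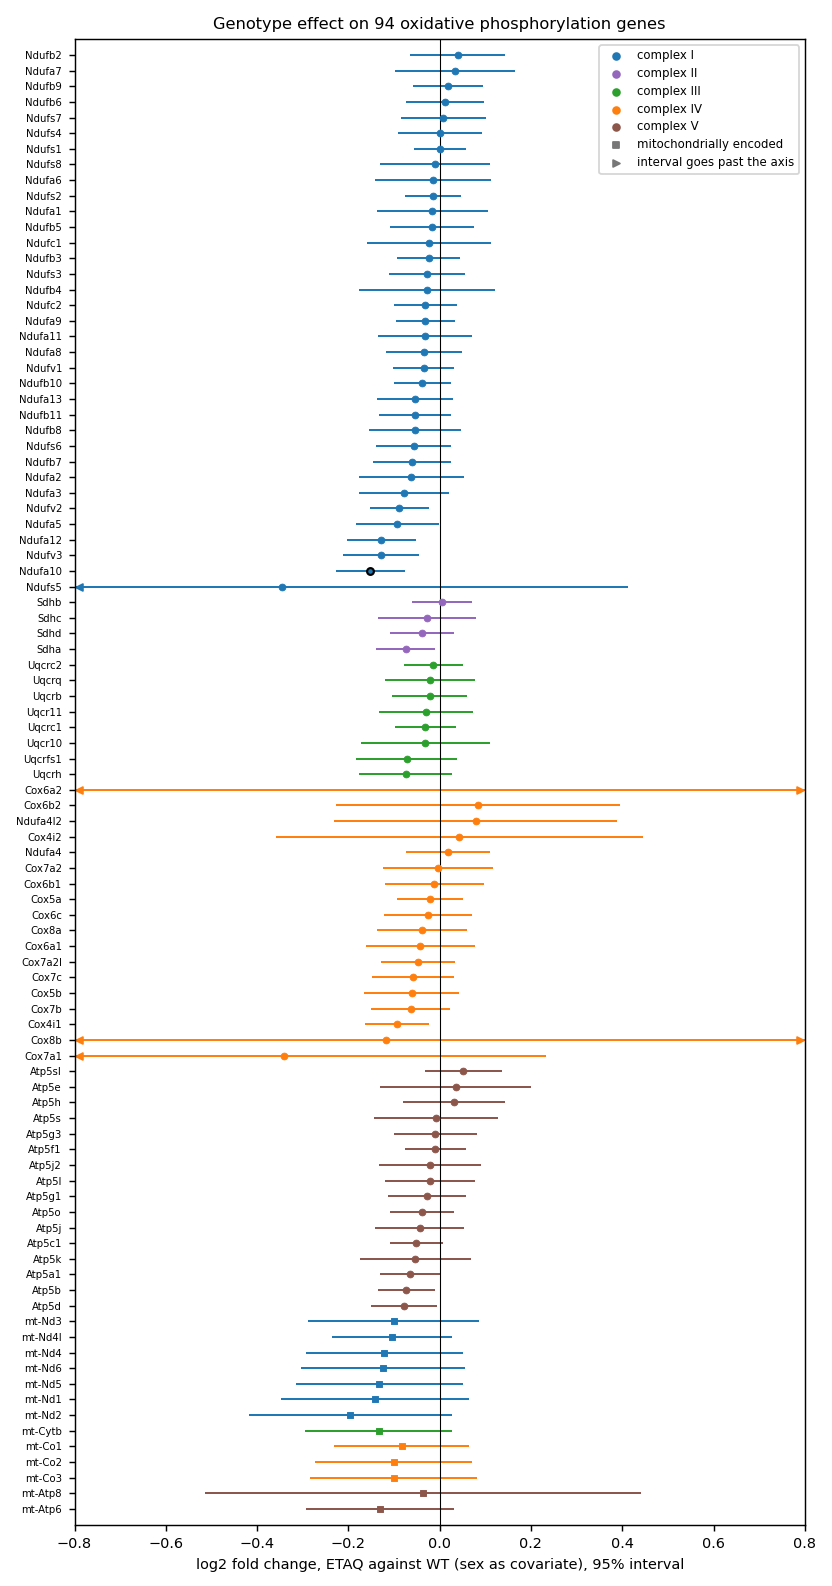
Log2 fold change of ETAQ against WT on the x axis for the 94 genes tested, grouped by complex, with 95% intervals as lines; circles are nuclear and squares mitochondrially encoded genes, and the black outline marks the called gene. Ndufa10 is the single outlined point at -0.15, all 13 squares lie left of 0, and the intervals of Ndufs5, Cox6a2, Cox8b and Cox7a1 run past the axis.

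The mitochondrially encoded genes all had values below 0, in CPM and in TPM, and none was called; with each mouse left out in turn, mt-Atp8 alone of them turned positive, without mouse 1, 2, 7 or 9. The 13 log2 fold changes ran from -0.20 ± 0.099 for mt-Nd2, a membrane subunit of complex I, to -0.04 ± 0.21 for mt-Atp8, with a median of -0.12 and none at an unadjusted p under 0.05. The smallest adjusted p was 0.528, for mt-Nd2. These 13 are read from a few polycistronic precursors and are not 13 independent measurements. mt-Cytb differed by -0.13 ± 0.072 and mt-Co1 by -0.08 ± 0.066.

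Their level varied more among mice than that of the nuclear genes. The summed CPM of the 13 genes was 106783, 82944, 89735, 77345, 78864 and 83304 in WT mice 2, 3, 4, 7, 10 and 12. It was 77847, 96884, 86064, 72141, 72437 and 74202 in ETAQ mice 1, 5, 6, 8, 9 and 11. WT mouse 2 and ETAQ mouse 5 stood above the rest, and the groups overlapped widely, at 86496 ± 10834 CPM in WT and 79929 ± 9788 CPM in ETAQ (SD, n = 6). The 95% interval lay within a 1.2-fold change for only 2 of the 13 genes, and their median SE was 0.0808. Without mice 2 and 5 the median was -0.113, and mt-Nd2 alone of the 13 passed the threshold, at -0.187 (adjusted p = 0.0332).

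**Figure D2:**
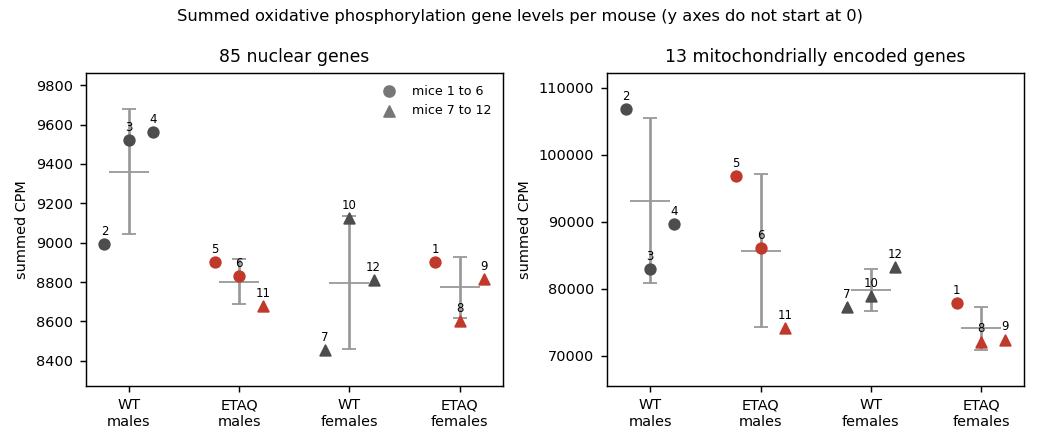
Summed CPM of the 85 nuclear genes (left) and the 13 mitochondrially encoded genes (right) for each mouse by genotype and sex, with the mouse number beside each point and the mean and SD in grey; circles are mice 1 to 6 and triangles mice 7 to 12. The 3 WT males hold 3 of the 4 highest nuclear sums, and mouse 2 (WT) and mouse 5 (ETAQ) the 2 highest mitochondrial sums.

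The same comparison was made within each sex. Mouse division is uneven here: the WT males are all of mice 1 to 6 and the WT females all of mice 7 to 12. ETAQ male 11 and ETAQ female 1 lie on the other side. The fit by sex had no term for mouse division. Its part in the genotype values within each sex, and in their difference, cannot be told apart. The summed CPM of the nuclear genes was 8995, 9522 and 9564 in WT males against 8901, 8831 and 8677 in ETAQ males, without overlap. In females it was 8457, 9128 and 8808 in WT against 8902, 8601 and 8817 in ETAQ, and the WT females enclosed the ETAQ females. Within males 78 of the 81 nuclear genes tested had values below 0, with a median of -0.089, and in TPM 72 did, with a median of -0.049. Within females 26 of the 81 were below 0 in CPM and 15 in TPM, with medians of 0.025 and 0.051. The medians of all genes tested were 0.037 in males and 0.046 in females in TPM. For the mitochondrially encoded genes, 12 of 13 were below 0 in males in CPM and in TPM, and in females 13 in CPM and 12 in TPM.

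No member passed the threshold in either sex. In males edgeR called 0 members, against 0.669% of all genes tested, and 21 (22.3%) were lower at an unadjusted p under 0.05, against 4.78% of all genes. That count rested on single mice, at 8 without WT mouse 3, 11 without WT mouse 4, 34 without WT mouse 2, 13 without ETAQ mouse 6 and 8 without ETAQ mouse 11. In females edgeR called 0 members, against 0.739% of all genes, with 4 (4.26%) higher and 3 (3.19%) lower at an unadjusted p under 0.05, against 3.89% and 4.96% of all genes. The limma-voom method called 0 members in each sex.

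The difference between the sexes was tested directly. The interaction called 0 of the 94 members, against 0% of all genes tested, and limma-voom also called 0. At an unadjusted p under 0.05, 19 members (20.2%) had a lower value in males than in females, against 2.67% of all genes tested. The smallest p values belonged to Ndufa7 and Ndufs3. For Ndufa7, an accessory subunit, the log2 fold change was 0.20 ± 0.060 in females and -0.13 ± 0.060 in males, a difference of -0.33 ± 0.085 (adjusted p = 0.901). For Ndufs3, a core subunit, it was 0.08 ± 0.038 in females and -0.13 ± 0.038 in males, a difference of -0.21 ± 0.054 (adjusted p = 0.901).

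**Figure D3:**
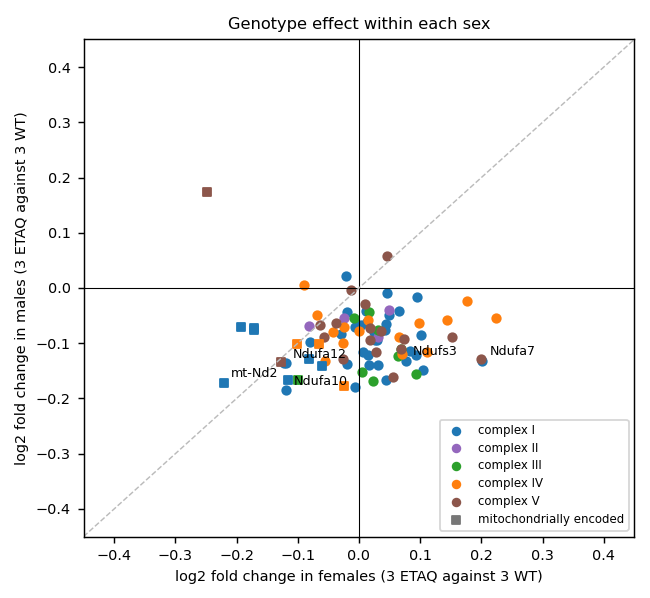
Log2 fold change of ETAQ against WT in females (x axis) and in males (y axis) for 90 of the 94 genes tested; the dashed line marks equal values, colours give the complex and squares the mitochondrially encoded genes. Nearly all points lie below 0 on the y axis and spread around 0 on the x axis; Cox6a2, Cox7a1, Cox8b and Ndufs5 lie outside the axes.

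Dividing by mouse number gave a like picture for the nuclear genes, with largely the same mice on each side as sex. This fit had sex as a covariate, whereas the TPM values were taken from group means without covariates. In mice 1 to 6 edgeR called 0 members, against 0.803% of all genes tested. At an unadjusted p under 0.05, 11 (11.7%) were lower there, against 4.92% of all genes, and 74 of the 81 nuclear genes were below 0 in CPM, with a median of -0.072, and 60 in TPM. In mice 7 to 12 it called 0, against 0.937%, with 2 (2.13%) higher and 2 (2.13%) lower at an unadjusted p under 0.05, against 4% and 5.54% of all genes, and 37 of the 81 were below 0 in CPM, with a median of 0.0041, and 24 in TPM. In TPM the nuclear medians were -0.0377 in mice 1 to 6 and 0.0448 in mice 7 to 12. Those of all genes tested were 0.0321 and 0.0502. The mitochondrially encoded genes had CPM medians of -0.06 in mice 1 to 6 and -0.18 in mice 7 to 12. By sex these were -0.128 in males and -0.115 in females. The difference between the divisions called 0 members, against 0% of all genes tested, with the genotype value of 6 members (6.38%) lower in mice 1 to 6 at an unadjusted p under 0.05, against 2.02% of all genes. limma-voom called 0 members in each division.

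Across genotypes, most members had higher values in mice 1 to 6 than in mice 7 to 12, 81 of the 94 in CPM. In mean TPM, without covariates, 50 of the 81 nuclear and 12 of the 13 mitochondrially encoded genes did. The TPM medians were 0.0205 for the nuclear genes, 0.134 for the mitochondrially encoded genes and -0.0616 for all genes tested. With sex and genotype as covariates edgeR called 4 members higher and 0 lower, against 7.89% of all genes in either direction, and 27 (28.7%) were higher at an unadjusted p under 0.05, against 11.8%. Without a term for sex it called 38 members (40.4%), all higher, against 20.6% of all genes. They were 14 nuclear genes of complex I, 1 of complex II, 4 of complex III, 8 of complex IV and 5 of complex V, and 6 mitochondrially encoded genes. For sex itself edgeR and limma-voom called 0 members, against 0.0931% of all genes, while 37 (39.4%) were higher in males at an unadjusted p under 0.05, against 8.06%. Of the nuclear genes, 72 of 81 were higher in males in CPM and 43 in TPM. Their median in TPM was 0.0059 and that of all genes tested was -0.0552. Relative to all genes the nuclear members thus lay higher in males on both scales. Sex and mouse division share most mice and part only through ETAQ mice 1 and 11, so what belongs to each cannot be told apart here.

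The 4 members called higher in mice 1 to 6 were 2 muscle forms of complex IV and 2 small subunits of ATP synthase. Cox8b, the muscle and brown fat form of subunit 8, differed by 2.37 ± 0.33 (log2, adjusted p = 0.00039), and Cox7a1, the muscle form of subunit 7a, by 0.86 ± 0.24 (adjusted p = 0.0434). Atp5k and Atp5l, the membrane subunits e and g of ATP synthase, differed by 0.20 ± 0.053 (adjusted p = 0.0323) and 0.15 ± 0.044 (adjusted p = 0.0483). Without mouse 1, the only female of mice 1 to 6, none of the 94 passed, and the values were 1.76 for Cox8b, 0.292 for Cox7a1, 0.206 for Atp5k and 0.164 for Atp5l. The count of called members was 0 to 7 over the 12 fits that left out 1 mouse each, 7 without WT mouse 7, 2 without mouse 2, 5, 6, 8 or 9, and 1 without mouse 11. Atp5j, Ndufc1, Ndufb7 and Cox6b1 followed, with adjusted p from 0.0542 to 0.0771.

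Atp5k was measured at 57.2, 60.3, 62.2, 60.9, 59.4 and 54.4 CPM in mice 1 to 6. It was measured at 48.2, 52.6, 50.2, 55.9, 50.4 and 49.96 CPM in mice 7 to 12. The divisions met only at mouse 10, which stood above mouse 6. The bases before the starts of Atp5k and Atp5l are shown because both genes were called in the same direction, beside that of Cox8b, whose level in cord is a small part of theirs (GRCm38.p6, chr5:108434400-108434649, minus strand; chr9:44920743-44920992, minus strand; chr7:140900447-140900696, minus strand). Capitals mark matches to the motifs of NRF1 and of ETS factors, which are regulators of respiratory chain genes.
Atp5k: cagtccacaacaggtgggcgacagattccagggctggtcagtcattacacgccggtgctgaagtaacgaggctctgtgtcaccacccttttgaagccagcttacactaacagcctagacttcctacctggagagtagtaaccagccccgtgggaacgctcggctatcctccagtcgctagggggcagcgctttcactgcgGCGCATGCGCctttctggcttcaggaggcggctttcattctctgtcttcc
Atp5l: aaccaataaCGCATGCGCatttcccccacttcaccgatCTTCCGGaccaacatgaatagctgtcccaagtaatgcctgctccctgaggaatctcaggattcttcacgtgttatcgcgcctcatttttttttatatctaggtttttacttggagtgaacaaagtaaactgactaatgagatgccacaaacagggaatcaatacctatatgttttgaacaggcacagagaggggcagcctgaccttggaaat
Cox8b: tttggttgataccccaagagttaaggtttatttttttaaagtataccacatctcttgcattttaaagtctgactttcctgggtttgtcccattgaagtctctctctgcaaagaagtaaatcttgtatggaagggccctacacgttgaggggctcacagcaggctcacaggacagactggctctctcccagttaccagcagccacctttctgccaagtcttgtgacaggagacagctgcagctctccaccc

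Across the members, 66 nuclear genes had a promoter window in the RefSeq table by symbol (300 bases, of which 50 follow the start). The NRF1 motif GCGCANGCG, on either strand, stood in windows of 20 of the 66 genes (30.3%). Counted by window, it stood in 29.6% of the 71 member windows, against 6.25% of all 32851 windows. The ETS motif CCGGAAG stood in windows of 16 genes (24.2%) and in 22.5% of member windows, against 8.86% of all windows. The YY1 motif AAGATGGCG stood in windows of 7 genes (10.6%) and in 9.86% of member windows, against 1.40% of all windows. The 3 motifs do not contain each other. At least 1 stood in windows of 35 of the 66 genes (53%) and in 50.7% of member windows, against 14.8% of all windows. Atp5k held overlapping NRF1 matches, 50 to 41 bases before its start. Atp5l held an NRF1 match 241 to 233 bases before its start and an ETS match 212 to 206 bases before it. Both windows held 1 more ETS match that does not lie wholly in the 250 bases shown. Cox8b and Ndufa10 held none of the 3. A match is a description of the letters only.

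Several complex IV subunits, and subunit c of ATP synthase, exist in more than 1 form, and for complex IV the common form held most of the TPM in every mouse. Cox4i2, the lung form, made up 0.225% to 0.439% of the TPM of Cox4i1 and Cox4i2 together. Cox6b2, the testis form, made up 0.967% to 1.51% of its pair, Ndufa4l2 0.317% to 0.581% and Cox7b2 0% to 0.421%. Cox7a1 made up 2.80% to 8.43% beside Cox7a2, and Cox8b 0.271% to 2.38% beside Cox8a. Cox7a2l, a related protein that bridges supercomplexes, was measured at 84.4 ± 5.79 CPM in WT and 81.7 ± 2.43 CPM in ETAQ. Of the genes for the identical subunit c of ATP synthase, Atp5g1 made up 28% to 30.5% of the TPM of Atp5g1 and Atp5g3 together.

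Levels of the muscle forms stood beside those of muscle markers as follows. Of the 15 skeletal muscle markers, all were detected and 12 were called higher in mice 1 to 6, against 7.89% of all genes in either direction. Their sum was 1390 CPM in mouse 2, 591 in mouse 3 and 282 to 353 in mice 1, 4, 5 and 6. Cox8b was measured at 1.75, 1.15, 1.22, 0.511, 0.557 and 0.654 CPM in mice 1 to 6 and at 0.358, 0.217, 0.323, 0.461, 0.174 and 0.509 CPM in mice 7 to 12. Cox7a1 was 1.54 to 2.52 CPM in mice 1 to 6 and 0.776 to 2.09 CPM in mice 7 to 12. The divisions met almost to the same value for Cox8b without overlapping, at mice 4 and 12, and overlapped for Cox7a1. Fat markers also differed, with 2 of 3 tested called higher in mice 1 to 6, against the same 7.89%. Their sum was 28.2 CPM in mouse 1, 10.2 in mouse 2 and 2.51 to 7.54 in the others. Mouse 1 held the highest Cox8b and Cox7a1 levels, and mouse 2 the highest muscle sum, while Cox7a1 in mouse 10 (2.09 CPM) was above mice 4, 5 and 6. The part of muscle or fat tissue in these values was not tested.

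Cox6a2, the heart and muscle form of subunit 6a, had a different order. It was measured at 2.64, 1.86, 0.0973, 0.143, 0.123 and 0.102 CPM in WT mice 2, 3, 4, 7, 10 and 12, so that 4 WT mice lay at 3 or 4 counts. It was measured at 1.48, 1.41, 1.31, 0.833, 0.744 and 0.487 CPM (14 to 50 counts) in ETAQ mice 1, 5, 6, 8, 9 and 11. WT mice 2 and 3 were the highest of all, and the WT mice enclosed the ETAQ mice. The part of muscle tissue in Cox6a2 was likewise not tested. In mice 7 to 12, where muscle markers summed to 173 to 196 CPM, the 3 ETAQ mice were above the 3 WT mice, a log2 fold change of 2.55 ± 1.16 (adjusted p = 0.543). Within females it was 3.02 ± 1.04 (adjusted p = 0.413), within males -0.50 ± 0.79 (adjusted p = 0.925), and over all mice 0.84 ± 0.82 (adjusted p = 0.806). None of these passed the threshold, and the 95% interval of the last ran from -0.98 to 2.66. Of the exon bases of Cox6a2, 10.3% overlap the gene Itgad on the opposite strand, and whether the counting used strand is not given in the sources used here.

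**Figure D4:**
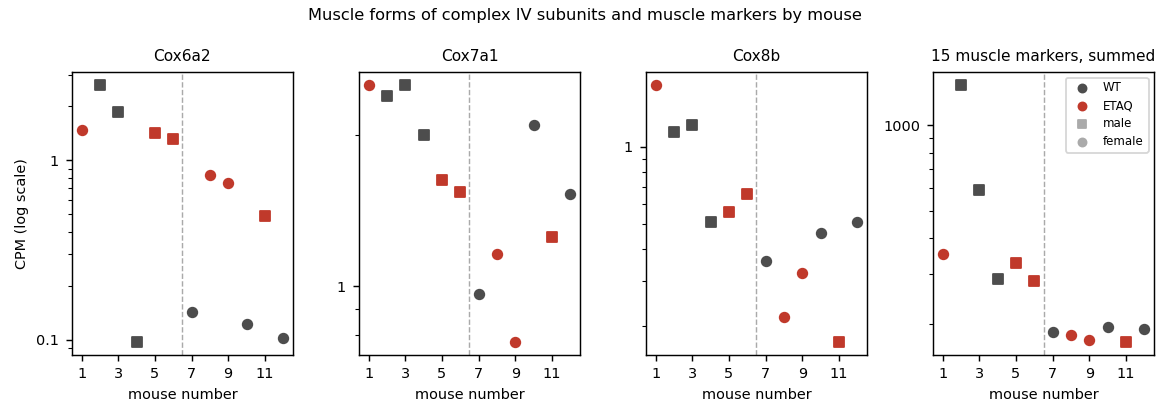
CPM on log axes of Cox6a2, Cox7a1, Cox8b and the sum of 15 skeletal muscle markers against mouse number, coloured by genotype, with squares for males; the dashed line divides mice 1 to 6 from mice 7 to 12. Muscle markers and Cox8b stand higher left of the line, while Cox6a2 is highest in WT mice 2 and 3 (2.64 and 1.86 CPM), 0.0973 to 0.143 CPM in the 4 other WT mice and 0.487 to 1.48 CPM in the 6 ETAQ mice.

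Near-identical copies of several members elsewhere in the genome held counts of their own, and whether these are reads of the member or of the copy was not tested. Counts of a copy were added to a member where the copy held 5% or more of the member's 75-base sequences, which joined 23 copies to their members, 5 of them at 0 counts in all libraries. Ndufs5, an accessory subunit of complex I chosen for naming after its values were seen, was affected most. It was measured at 64.8 to 76.2 CPM in mice 1, 2, 3, 4, 10 and 11 and at 29.4 to 34.8 CPM in mice 5, 6, 7, 8, 9 and 12. In the same 6 mice with low values 997 to 1269 counts were assigned to BC002163, a processed pseudogene, and in the other 6 at most 1.31 counts were. With both added, the level was 64.8 to 77.5 CPM in all mice, and its coefficient of variation went from 40.2% to 6.02%.

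The comparison of genotypes for Ndufs5 moved with it. The log2 fold change was -0.345 for Ndufs5 alone (adjusted p = 0.806), the largest negative value of any nuclear member, and 0.023 ± 0.044 with the copy added (adjusted p = 0.919). Of the 6 mice with low values, 4 were ETAQ and 2 were WT. The copy, at chromosome 16, 42955631 to 42955949 (GRCm38, plus strand), matches the Ndufs5 transcript over 317 of 319 bases, and both differences lie in the 318 coding bases. A stretch of 60 coding bases from coding base 46 on holds both and is shown because, within the copy, these are the only coding bases that differ. Of the 75-base sequences of the Ndufs5 gene, 15.73% are shared with the copy. Capitals mark the differing bases, T36C and A60G, counted from the first base shown with the Ndufs5 base first.
Ndufs5: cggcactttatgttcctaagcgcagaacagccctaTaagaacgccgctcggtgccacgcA
BC002163: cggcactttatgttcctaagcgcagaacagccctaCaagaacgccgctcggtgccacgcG

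**Figure D5:**
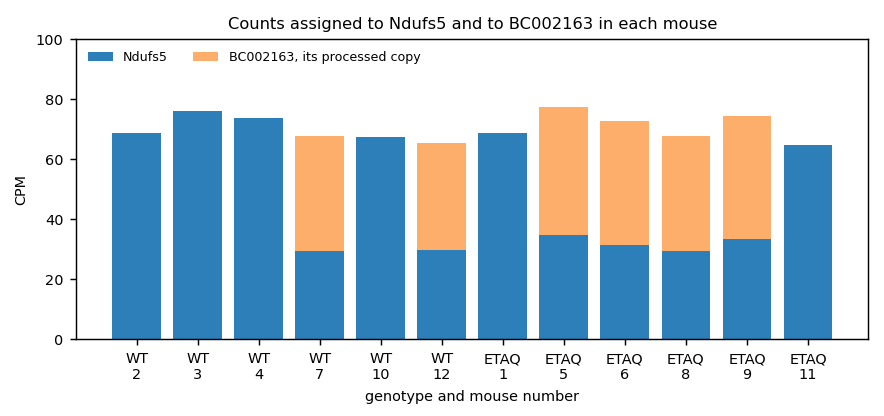
CPM assigned to Ndufs5 (blue) and to its processed copy BC002163 (orange), stacked, for each mouse by genotype and number. The total stays between 64.8 and 77.5 CPM, while the blue part is either all of it or 29.4 to 34.8 CPM.

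Other members had counts beside those of a near-identical gene. mt-Nd4l and the pseudogene Gm10222 had identical counts in every library, 14868 to 26828, with 98.65% of their 75-base sequences in common, so the deposited level of mt-Nd4l is one part of an equal split. Atp5g2, another gene for subunit c, was at 0 in all libraries, while Gm10231, which holds 100% of the sequence of its deposited transcript, held 1356 to 2488 counts. With that copy added, Atp5g2 was 59.1 ± 1.76 CPM in WT and 57.0 ± 1.27 CPM in ETAQ, a log2 fold change of -0.05 ± 0.029 (adjusted p = 0.545). Which gene these reads come from was not tested, so the 0 of Atp5g2 cannot be read as absence. For Ndufb4, an accessory subunit of complex I, the copy Gm3244 held more counts (797 to 1538) than the gene itself (354 to 691), and its log2 fold change was -0.03 alone and -0.08 ± 0.041 with the copy added (adjusted p = 0.496). Adding all copies left Ndufa10 as the 1 called member.

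The genes that build and supply the chain were read from lists, on the CPM scale only. Whether their directions hold in TPM was not tested. Of 21 complex IV assembly genes tested, 1 was called (4.76%, against 1.92% of all genes): Cox15, which makes the heme A of cytochrome oxidase, was 34.5 ± 0.473 CPM in WT and 31.1 ± 0.596 CPM in ETAQ (log2 fold change -0.15, adjusted p = 0.0171). Its WT mice, 33.9 to 35.2 CPM, did not overlap the ETAQ mice, 30.0 to 31.8 CPM. Atpaf1, an assembly factor of ATP synthase, was 89.9 CPM in WT and 78.9 CPM in ETAQ (-0.19, adjusted p = 0.0616). No gene was called among the 15 of complex I assembly, of which 13 had values below 0, or among the assembly genes of complexes II (2 tested) and III (5 tested). The smallest p values there were those of Ndufaf5 (-0.12, adjusted p = 0.248), Sdhaf2 (-0.04, adjusted p = 0.765) and Lyrm7 (-0.69, adjusted p = 0.443).

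Mitochondrial protein synthesis and the citric acid cycle had no called gene either. Of 76 mitochondrial ribosomal protein genes, 55 had values below 0, with a median of -0.04, and 5 (6.58%) were lower at an unadjusted p under 0.05, against 6.36% of all genes, led by Mrps12 (-0.18, adjusted p = 0.239). Of the 9 mitochondrial translation factors, 5 were below 0, and Tufm, an elongation factor, had the smallest p (-0.08, adjusted p = 0.459). Of the 18 genes of pyruvate dehydrogenase and the citric acid cycle, 15 were below 0 and 4 (22.2%) were lower at an unadjusted p under 0.05, against 6.36% of all genes. Their lowest p was that of Suclg1, a subunit of succinyl-CoA ligase, at 84.7 ± 1.79 CPM in WT and 79.7 ± 1.53 CPM in ETAQ (adjusted p = 0.128).

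Genes that control the chain did not share this direction on the CPM scale. Of 14 transcriptional regulators, among them Ppargc1a, Nrf1, Gabpa and Esrra, 2 had values below 0, with a median of 0.05 and 1, Esrrg, a nuclear receptor, higher at an unadjusted p under 0.05 (0.07, adjusted p = 0.439). Of the 21 genes for upkeep and expression of mitochondrial DNA, 10 were below 0, with a median of 6.5e-05. Of 5 subunits and carriers outside the symbol rule, 4 were below 0, and 8 of 11 outer membrane and import genes were. None of these lists had a gene past the threshold. Their smallest p values were those of Polg2 (0.19, adjusted p = 0.573), Ndufab1 (-0.04, adjusted p = 0.709) and Timm23 (-0.07, adjusted p = 0.467).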

How the data were processed

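Whole spinal cord RNA of 12 mice was sequenced, and groups were taken from the titles. The authors deposited, per the file headers, an expected count per gene from RSEM, which can divide reads between near-identical genes, and TPM. Per the submitters' processing notes, RSEM had version 1.2.12 and Bowtie2 had version 2.2.0. What build, annotation and strand setting were used is not given in the sources used here. Effective length, deposited in bases per the file headers, served to check TPM.

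Expected counts (15.4% of values not whole) were rounded and tested in R 4.3.3 with edgeR 4.0.16: filterByExpr on the 4 genotype-by-sex groups, TMM, the robust quasi-likelihood test with sex as covariate, two-sided, Benjamini-Hochberg adjustment over 17189 genes and a threshold of 0.05. One fit had a genotype term per mouse division, another the 4 groups. Alternatives used DESeq2 1.42.0, limma 3.58.1, other scalings and covariates, and left out mice. The genotype fit was tested on simulated counts that held no effect of sex or mouse division. The other fits were not tested in this way. Library totals were 23595929 to 41452662 counts. Limits from counts of 0 cover counting error only.

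Members and lists were chosen with earlier results of these data known. The rule named the mitochondrially encoded members, called members, the 2 smallest p and the highest TPM per complex, tissue forms, the 8 smallest p for mouse number and the 2 for interaction, and per list called genes or the smallest p. Of the 98 members, positions and 75-base sequences came from GENCODE M21 and promoter windows from RefSeq (GRCm38.p6).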

Additional observations from a re-analysis of the deposited data

Results flagged for a closer look

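In 10 of 116 groups of 6 mice examined (8.62%), the highest or lowest mouse stood apart from the others by more than Dixon's 95% critical value, and chance alone gives about 1 in 20. In WT, mouse 2 was the high value for mt-Nd2 (6264 CPM, next 4762), mt-Nd3 (1127, next 838.1), mt-Nd4 (9851, next 8039) and mt-Nd4l (789.8, next 652.8). The same mouse was high for the summed mitochondrially encoded genes of complex I (34940 CPM, next 28110) and of complex V (9032 CPM, next 7062). These 6 are not independent, since they come from 1 library and from shared precursors. In ETAQ, mouse 5 was the high value for mt-Nd1 (7814 CPM, next 6305), for mt-Nd2 (5406 CPM, next 4337) and for the nuclear gene Ndufa12 (72.82 CPM, next 66.11). In ETAQ, mouse 1 was the high value for Cox8b, at 1.746 CPM with the next at 0.6545 CPM. The cause was not tested for any of them.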

How the results depend on the processing

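The number of members called between genotypes was 1. It was 2 with DESeq2, 2 with sex and mouse division as covariates (Ndufa10 and Ndufa12 in both), 2 without mice 2 and 5 (mt-Nd2 and Ndufa12, chosen after seeing the data) and 0 to 1 when each mouse was left out, and the cause was not tested. Over all genes, 330 were called, and 231 to 506 under the alternatives, with 506 from DESeq2. The median of nuclear members stayed below 0 when each mouse was left out (-0.0512 to -0.0133), as did that of the mitochondrially encoded members (-0.171 to -0.0699). mt-Atp8 reversed when mouse 1 (0.0312), 2 (0.0882), 7 (0.0347) or 9 (0.0248) was left out, with a range of -0.175 to 0.0882. Members called for mouse division numbered 4, with 38 when sex was left out of the fit and 0 to 7 when each mouse was left out. Members at an unadjusted p under 0.05 within males numbered 21, and 8 to 34 when each mouse was left out. Among named members' genotype values under the alternatives, 531 kept their side of the threshold and direction, 10 lost the call, 5 gained it and 4 reversed. Cox6a2, Cox8b and Cox7a1 (330, 242 and 625 counts in all) had SEs of 0.82, 0.57 and 0.27, against 0.19 for Cox4i2 with 396 counts. No paired analysis was possible because the genotypes share no mouse number.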
